A study of Mus musculus with 2 samples.

Results

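Oxidative phosphorylation was measured here as 105 of the 27998 genes in the deposited tables: 92 nuclear genes and the 13 protein-coding genes of mitochondrial DNA. The nuclear members were all genes whose symbol begins with Nduf, Cox4, Cox5, Cox6, Cox7, Cox8, Uqcr or Atp5, together with Sdha, Sdhb, Sdhc and Sdhd, and the mt members were the mt-Nd, mt-Co, mt-Atp and mt-Cytb genes. Single-cell RNA-seq was performed on retinal pigment epithelium (RPE), the pigmented monolayer behind the photoreceptors, from 2 male C57BL/6J mice called R1 and R2. Both mice were in 1 condition, with no treatment or genetic change named, and were 4 to 5 weeks old by their labels and at postnatal day 36 by the protocol. For each mouse, the sheets released by trypsin from the left and right eye were combined, and calcein-positive, DAPI-negative cells were sorted into 1 library.

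Oxidative phosphorylation is carried out by the 4 respiratory chain complexes (I to IV) and the ATP synthase (complex V) of the inner mitochondrial membrane. Complexes I, III, IV and V combine subunits made from nuclear mRNA in the cytosol with subunits made from mitochondrial mRNA inside the organelle, whereas complex II (succinate dehydrogenase) is wholly nuclear. Several nuclear subunits exist as isoforms that are known from heart and skeletal muscle, testis or hypoxic cells, and the RPE is known as a tissue that relies on its mitochondria while leaving glucose to the photoreceptors.

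The tables held 2844 cell barcodes of R1 and 2994 of R2, and 12 barcodes occurred in both. Cells with at least 500 genes, at most 5% of UMIs (unique molecular identifiers, 1 per counted mRNA molecule) from mt- genes and at least 5% from Ttr, the transthyretin gene that RPE cells express strongly, were kept: 2723 cells of R1 and 2947 of R2. The kept cells held 25660266 and 29542337 UMIs, with medians of 8751 and 8158 UMIs per cell. The 8 RPE markers, among them Rpe65, Rgr and Rlbp1, summed to 1521 and 1707 UMIs per 10000. Of these sums, 1129 and 1265 were Ttr, which the selection itself used. Rpe65, which the selection did not use, gave 47.6 and 49.2, and Rgr 200 and 237. The 6 fibroblast, 6 endothelial and 8 rod markers each summed to under 1 UMI per 10000, with Pdgfra at 0 in both mice. Microglia or macrophage markers summed to 1.696 and 1.24, and melanocyte markers, with Pax3 at 0, to 3.50 and 2.86. Only 3 of the 8 microglia or macrophage markers had enough UMIs for the depth test below. Of these 3, C1qc and Fcer1g were sparse in the bins tested, so the sum came mainly from the remaining tested gene. The 7 Muller glia markers summed to 321 and 304. That list shares Rlbp1 with the RPE list, but Rlbp1 cannot make up the whole sum. The RPE markers other than Ttr, Rgr and Rpe65, Rlbp1 among them, leave less than this in both mice. The sum was not resolved by gene and cannot by itself tell Muller glia from RPE. Among cells that met the gene and mt limits, none of either mouse held 4 to under 5% Ttr. Of the same cells, 12 in R1 and 4 in R2 held 5 to under 6%. All levels below are UMIs per 10000 UMIs summed over cells. They are not divided by gene length, since 1 UMI stands for 1 molecule captured near its 3′ end.

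The nuclear members gave 472 UMIs per 10000 in R1 and 462 in R2, and the mt members gave 131 and 128. The nuclear to mt ratio was thus 3.60 in R1 and 3.62 in R2. The sums of the mice lay close together, though their exact 95% Poisson intervals, which cover counting error only, did not overlap: 471 to 473 against 461 to 463 for the nuclear sum. With 1 library per mouse and 1 condition there was no group to test.

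Complex I supplied the most nuclear UMIs, with 36 genes and 39.3% of the nuclear sum in R1. Complex IV (cytochrome c oxidase) followed with 28.4%, complex V with 18.2% and complex III (cytochrome bc1) with 11.7%. The complex III share leaves out Cyc1, its cytochrome c1 subunit, whose symbol falls outside the rule. The 4 subunits of complex II made up 1.72%, and 9 genes that are not structural subunits (the Ndufaf assembly factors, Atp5s and Atp5sl) made up 0.646%. The nuclear members with the most UMIs were Cox8a and Ndufa4, both of complex IV. Cox8a stood at 28.0 in R1 and 27.6 in R2, Ndufa4 at 26.7 and 26.9, and Cox4i1, the regulatory subunit 4 of complex IV, at 18.5 and 19.4. Ndufa13 (15.9 and 16.0) and Ndufb11 (14.2 and 15.1), accessory subunits of complex I, came next by the mean of the mice, though in R1 Uqcr11 of complex III (15.2 and 13.4) lay above Ndufb11. At least 98.6% of kept cells of either mouse held a UMI of Cox8a, Ndufa4, Cox4i1, Ndufa13 and Ndufb11 each. Sdhb, the iron-sulphur subunit of complex II, stood at 2.81 and 2.87, Sdhd at 2.23 and 2.82, Sdhc at 1.75 and 2.03, and the flavoprotein subunit Sdha at 1.32 and 1.19.

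The nuclear members differed little between the mice. Of the 69 with at least 1 UMI per 10000, 66 lay within 1.3-fold of each other in R1 and R2. The other 3 were all higher in R1. They were Cox8b (7.43 in R1 and 2.93 in R2), Atp5g1 (4.72 and 2.93), a source of the c-ring of the ATP synthase, and Ndufb4 (5.48 and 3.85), an accessory subunit of complex I. Cox8b showed the widest of these gaps, at 2.54-fold.

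**Figure D1:**
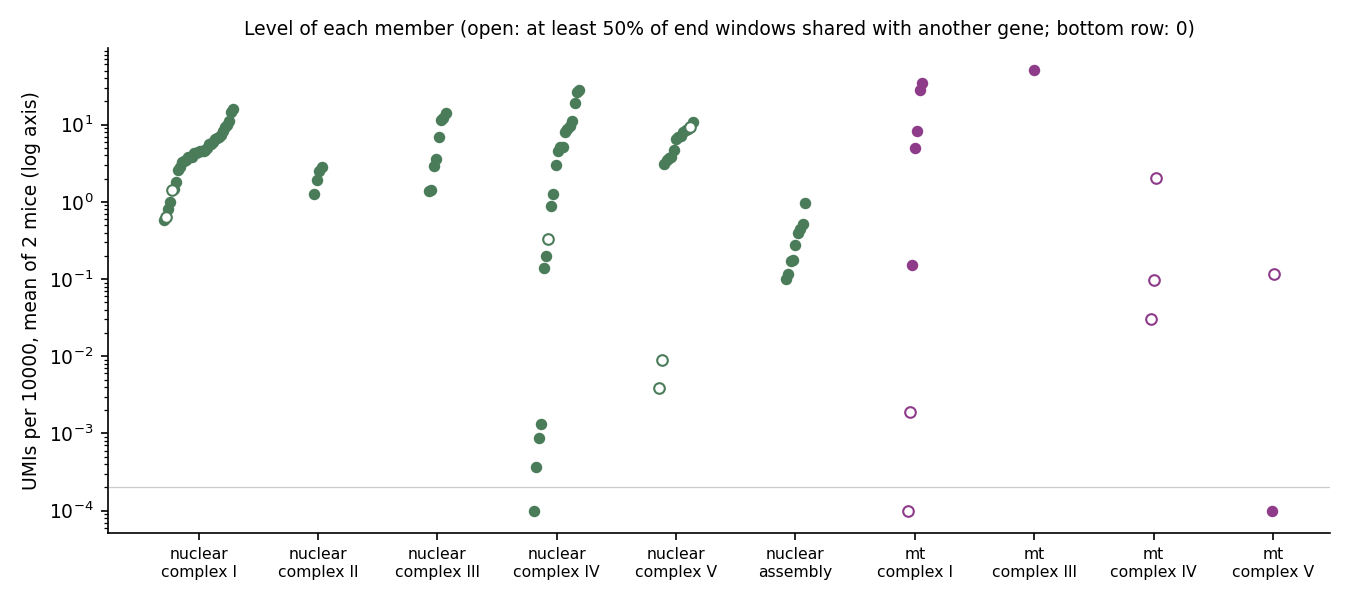
Level of each of the 105 members (y axis, log scale, UMIs per 10000, mean of the 2 mice) by origin and complex, nuclear in green and mt in purple. Open circles are genes with at least 50% of their end windows shared with another annotated gene, and points below the grey line have no UMI in either mouse. Of the 6 open mt circles, 5 lie under 1 UMI per 10000, below all mt genes that carry the mt sum.

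The mt sum came from few genes. mt-Cytb, the cytochrome b of complex III, gave 52.1 in R1 and 50.3 in R2. mt-Nd4 (37.6 and 31.9), mt-Nd1 (24.8 and 30.9), mt-Nd2 (8.69 and 7.61) and mt-Nd5 (5.30 and 4.65), all of complex I, followed. Complexes I and III thus supplied 58.4% and 39.7% of the mt sum of R1. mt-Co1, the catalytic subunit of complex IV, gave only 2.15 and 1.96. The other mt genes were lower still: mt-Nd6, which is coded on the opposite strand, gave 0.219 and 0.0856, mt-Atp6 0.0998 and 0.131, mt-Co3 0.0904 and 0.106, and mt-Co2 0.0265 and 0.0338. mt-Nd3 had 7 and 3 UMIs in all, and mt-Atp8 and mt-Nd4l had none, which allows up to 0.00117 and 0.00102 UMIs per 10000 (3 counts of the total). mt-Atp8 overlaps mt-Atp6 and mt-Nd4l overlaps mt-Nd4 on 1 transcript each, so these pairs cannot be told apart at the 3′ end.

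These levels went with a nuclear copy of mitochondrial DNA. In GRCm38 with the GENCODE vM21 annotation, a run of unprocessed pseudogenes on the minus strand of chromosome 1 (chr1:24612407-24616197) carries the same order of genes as mt-Co1 to mt-Nd4l. For each member, the last 300 bases of its coding transcripts were divided into 50-base windows, and the share of windows found without a mismatch in a transcript of another gene was counted. For mt-Co2, the copy is Gm28661, for mt-Co3 Gm28437 and for mt-Atp6 Gm10925, and none of these 3 is among the genes counted in the deposited tables. A 60-base stretch near the 3′ end of each gene is printed, 5′ to 3′ on the gene's strand, because it was identical in gene and copy; capitals would mark mismatches, and there were 0 in the 60 bases of each and in the 300 bases compared.
mt-Co2 (chrM:7627-7686, copy chr1:24614892-24614951): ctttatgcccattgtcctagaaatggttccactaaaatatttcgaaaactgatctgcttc
mt-Co3 (chrM:9321-9380, copy chr1:24613198-24613257): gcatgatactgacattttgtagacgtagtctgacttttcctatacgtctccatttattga
mt-Atp6 (chrM:8538-8597, copy chr1:24613981-24614040): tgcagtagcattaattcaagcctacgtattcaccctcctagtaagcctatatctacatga

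Of the 13 mt genes, 6 had at least 50% of windows shared: mt-Co1 and mt-Co2 (100% each), mt-Co3 (99.6%), mt-Atp6, mt-Nd3 and mt-Nd4l (98.8% each). Their median level was 0.0641 and 5 of the 6 lay under 1 UMI per 10000, with mt-Co1 as the exception. Of these 5, mt-Nd4l shares a transcript with mt-Nd4, so its level cannot show whether a shared end goes with low counts. The 7 with fewer shared windows had a median of 8.15, and mt-Cytb, mt-Nd1 and mt-Nd4 had 0% shared. Of these 7, 2 also lay under 1 UMI per 10000, mt-Nd6 and mt-Atp8, both with 0% shared. For mt-Nd6 a low level thus occurred without a shared end. mt-Atp8 does not show this, since its place in the gene order lies inside the run on chromosome 1. Only annotated transcripts were compared, so a copy of it there could be missed, and it shares a transcript with mt-Atp6. Among the nuclear members, 6 had at least 50% shared, all with pseudogenes: Cox7c (82.1%; level 0.401 and 0.250), Atp5l (70.1%; 0.00663 and 0.0112), Atp5g2 (59.96%; 0.00312 and 0.00474), Ndufs5, Ndufs3 and Atp5h. Of these 6, 4 lay under 1 UMI per 10000, as did 19 of the 86 without such an end. Atp5h nevertheless gave 9.34 and 9.396, so a shared end did not always go with a low level. The counts of genes with such copies, and so the sums and complex shares above, are uncertain. Whether reads of these genes were left uncounted was not tested, and the reads were not used here.

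The nuclear share changed little with depth, meaning UMIs per cell, whereas the mt share was lower in deeper cells. Depth bins were set at under 5000, 5000 to under 8000, 8000 to under 12000 and at least 12000 UMIs per cell, with 596, 621, 773 and 733 cells in R1 and 1002, 457, 527 and 961 in R2. From the shallowest to the deepest bin, the nuclear sum of R1 was 497, 487, 477 and 459, and that of R2 was 469, 477, 473 and 455. The deepest bin was thus 7.59% below the shallowest in R1 and 2.93% below it in R2.

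The mt sum of R1 was 218, 172, 132 and 101 over the same bins, and that of R2 was 153, 172, 147 and 109. It was lower in the deepest than in the shallowest bin by 53.6% in R1 and 28.8% in R2, and in R2 its highest value stood in the second bin. The nuclear to mt ratio was 2.28, 2.84, 3.60 and 4.54 in R1 and 3.06, 2.77, 3.22 and 4.17 in R2. The ratio was therefore 1.99-fold higher in the deepest than in the shallowest bin in R1 and 1.36-fold in R2. With 2 mice an exact paired permutation test cannot go below p = 0.5, and none was made.

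In UMIs per cell, both sums were higher in deeper cells. Between the shallowest and the deepest bin, the mean total was 4.51-fold higher in R1 and 5.10-fold in R2. Nuclear UMIs per cell were 4.17-fold and 4.95-fold higher, and mt UMIs per cell 2.10-fold and 3.64-fold. The mt UMIs of a cell thus differed less between the bins than its total did. Across all kept cells, Spearman's rho with total UMIs was -0.19 in R1 and -0.097 in R2 for the nuclear share and -0.46 and -0.26 for the mt share, as descriptions over 2723 and 2947 cells. Cells with enough Ttr that failed the quality criteria, 50 in R1 and 26 in R2, held 601 and 660 mt UMIs per 10000 and 426 and 409 nuclear UMIs. The mt level of these cells follows from the limit. Their nuclear level did not enter it, but a higher mt share by itself lowers every other share of the same total.

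**Figure D2:**
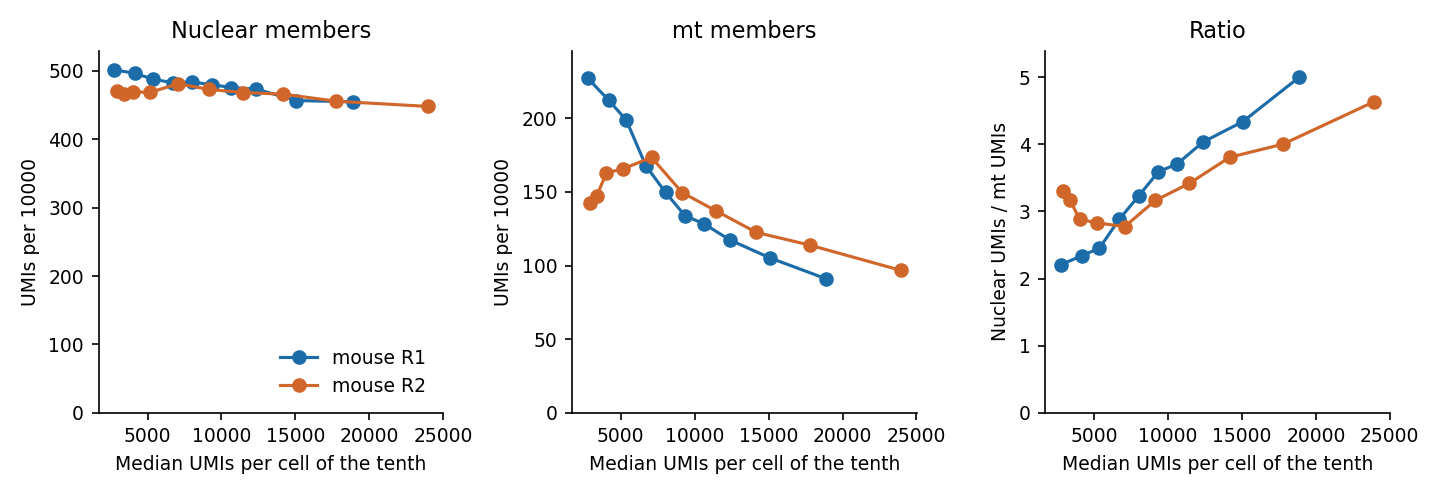
Nuclear members, mt members (UMIs per 10000) and their ratio (y axes, from 0) against the median UMIs per cell (x axis) in 10 equal groups of the kept cells by depth, R1 in blue and R2 in orange. The nuclear lines stay nearly level, the mt line of R1 falls throughout, and that of R2 rises to a peak before it falls.

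The single genes were tested with edgeR's quasi-likelihood test on UMIs summed per mouse over the shallowest and the deepest bin, with the mouse as a block. With 4 sums from 2 mice, the SE and p of this fit lean on variation shared over all genes. They do not measure the spread between the mice. Of 10902 genes tested, 0.0826% were called higher and 0.615% lower in the deepest bin at a Benjamini-Hochberg adjusted p under 0.05. Of the 10 mt genes tested, 0 were called higher and 6 lower, and all 10 were lower in both mice. Of the 86 nuclear members tested, 0 were called higher and 1 lower, and 35 had a positive log2 fold change. The median log2 fold change was -0.78 for the mt genes, -0.05 for the nuclear members and 0.01 for all genes tested. With an unadjusted p under 0.05 there were 9 of the 10 mt genes and 10 of the 86 nuclear members, beside 844 of all 10902 genes. The calls rested on the fit: without the mouse as a block no gene of any kind was called, and DESeq2 called 3 members, mt-Nd4, mt-Cytb and mt-Nd1.

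The 6 called mt genes were mt-Nd4, mt-Cytb, mt-Nd1, mt-Nd2, mt-Co1 and mt-Nd5. mt-Nd4 stood at 64.1 in the shallowest and 27.9 in the deepest bin of R1 and at 39.1 and 26.6 in R2 (log2 fold change -0.89, SE 0.13, edgeR adjusted p = 1.20e-09). mt-Cytb stood at 86.3 and 40.4 in R1 and at 62.6 and 42.8 in R2 (-0.83, SE 0.12, adjusted p = 1.12e-08). mt-Nd1 went from 41.7 to 19.3 and from 35.2 to 26.9 (-0.76, SE 0.13, adjusted p = 1.04e-06). In each of the 3 genes the deepest bin of either mouse lay below the shallowest bin of both. Their log2 values, in the same order, were -1.20, -1.10 and -1.11 in R1 but -0.56, -0.55 and -0.39 in R2. The mice thus lay further apart than the SE. mt-Nd2, mt-Co1 and mt-Nd5 had log2 fold changes of -0.68, -0.65 and -0.56. mt-Nd6, mt-Co3, mt-Co2 and mt-Atp6, with few UMIs, had values between -0.83 and -0.62 and were not called.

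The only nuclear member called was Cox8b, the isoform of cytochrome c oxidase subunit 8 known from heart and skeletal muscle. It stood at 14.1 in the shallowest and 5.06 in the deepest bin of R1, and at 3.42 and 2.52 in R2. The edgeR log2 fold change was -0.98 (SE 0.14, adjusted p = 1.05e-09), but it came mainly from R1, with -1.48 in R1 and -0.44 in R2. The bins of R1 did not overlap those of R2, and the difference between the mice exceeded that between the bins of R2. DESeq2 gave Cox8b a log2 fold change of -0.96 and did not call it (adjusted p = 0.9999).

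Among the other 85 nuclear members tested, the log2 fold changes lay between -0.46 (Ndufaf1) and 0.55 (Ndufaf5), and the smallest adjusted p was 0.277, for Sdhd. Of all 86, 43 were lower and 27 higher in the deepest bin in both mice, and 16 went opposite ways. Sdhd, the membrane anchor of complex II, had 1.57 and 2.43 in R1 and 2.53 and 3.003 in R2 (log2 fold change 0.42). Atp5c1, the central stalk subunit of the ATP synthase, had 0.31, and the accessory subunits Ndufv3 and Ndufc1 of complex I had -0.35 and -0.33. None of these 4 passed the test.

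**Figure D3:**
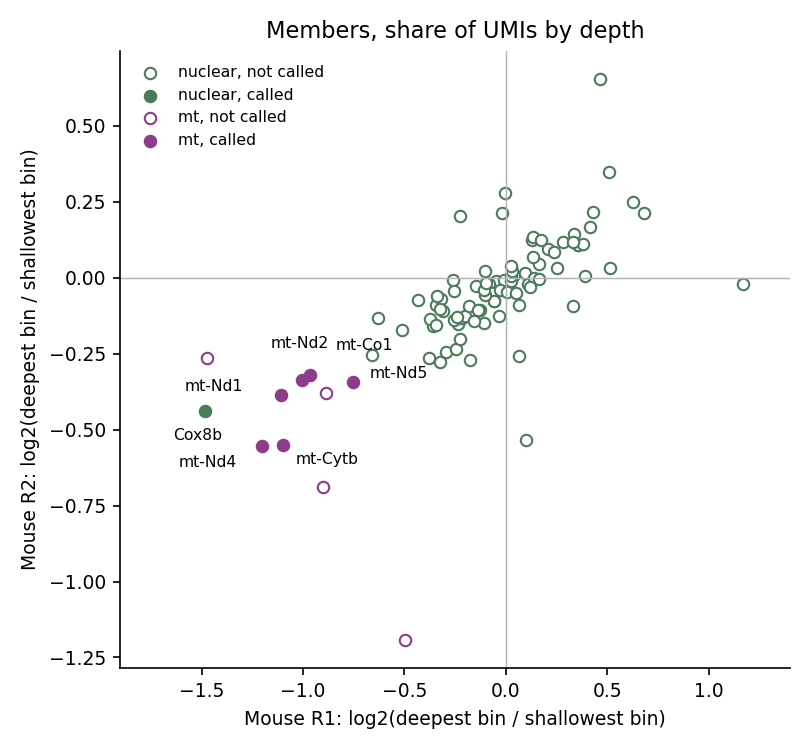
Log2 ratio of each tested member between the deepest and the shallowest depth bin in R1 (x axis) and R2 (y axis), nuclear in green and mt in purple, filled where called by edgeR with the mouse as a block. All 10 mt genes lie in the lower left of the plot, and Cox8b is the only filled nuclear point.

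The other genes of the pathway were read against the same low background of calls, at which lists of this size hold few or none. None of the 12 complex IV assembly genes (such as Surf1 and Sco1) was called by edgeR with the block. The same held for a list of 9 genes with electron carriers (such as Cycs), chain regulators and Cyc1 of complex III. It also held for 13 genes of mitochondrial DNA and RNA upkeep (such as Tfam and Polrmt) and 7 transcriptional regulators (such as Nrf1 and Gabpa). Nor was any of 73 genes of the mitochondrial ribosome or 14 genes of the tricarboxylic acid cycle called. Between 0 and 3 genes of each list had an unadjusted p under 0.05, against the 844 of all 10902, and the median log2 fold changes of the lists lay between -0.07 and 0.08. The 86 tested genes of the cytosolic ribosome also had 0 calls and a median of 0.05. Of 3 listed nuclear-retained RNAs, 2 were tested, and both (Malat1 and Neat1) were called lower. Malat1, a long noncoding RNA that stays in the nucleus, stood at 222, 179, 143 and 122 over the bins of R1 and at 176, 194, 171 and 144 over those of R2. Its order over the bins was that of the mt sum in both mice. The part of nuclear or mitochondrial RNA retention in the depth pattern was not tested.

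Other genes and lists also differed between the bins. Immediate early and stress genes summed to 3.51 in the shallowest and 2.13 in the deepest bin of R1 and to 6.17 and 5.17 in R2, with Hspa1a called lower. The melanocyte markers summed to 4.21 and 2.96 in R1 and to 3.02 and 2.62 in R2, and 1 of the 4 tested was called lower: Mlana, a melanosome protein of pigment cells, at 2.498 and 1.489 in R1 and 1.46 and 1.15 in R2. Of 5 tested markers of Muller glia, Dkk3 was called lower. The sum of the list, which shares Rlbp1 with the RPE list, was 292 and 331 in R1 and 301 and 311 in R2. Of 3 tested markers of microglia or macrophages none was called, but C1qc and Fcer1g, both under 0.04 UMIs per 10000 in every bin tested, were higher in the deepest bin at an unadjusted p under 0.05, and the list summed to 1.73 and 1.68 in R1 and 1.04 and 1.26 in R2. Actb, the cytoskeletal beta-actin, was called lower, at 4.96 and 2.98 in R1 and 10.99 and 2.91 in R2. The part of these genes in the depth pattern of the members was not tested. Fibroblast markers reached 0.601 in the shallowest bin of R2 and at most 0.0253 in any other bin, and without the cells holding 3 or more of these markers the same number of members, 7, was called.

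Nuclear and mt members showed little covariation across cells. Each cell was thinned to 3000 UMIs by random draws, which left 2537 cells of R1 and 2755 of R2, and Pearson's r was computed as a description, with no test, since cells of 1 mouse share a library. Between the nuclear and the mt sum r was 0.054 in R1 and 0.069 in R2. Within the 4 depth bins it lay between -0.065 and 0.055 in R1 and between -0.014 and 0.11 in R2.

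The low value is to be read beside those within each origin. The nuclear members divided into alternating sets of 46 by symbol gave r = 0.42 in R1 and 0.29 in R2. The mt-Nd genes against mt-Cytb gave 0.78 and 0.71, and against the sparse mt-Co genes 0.27 and 0.24. These values pool all depths. Within the deepest bin the nuclear sets gave 0.34 in R1 and 0.31 in R2. There the mt-Nd genes gave 0.41 and 0.53 with mt-Cytb and 0.087 and 0.18 with the mt-Co genes. Between the nuclear and the mt sum r was 0.0033 and 0.11 in that bin. Each origin thus varied with itself more than with the other, by a smaller margin for the mt genes at like depth. Among the nuclear complexes, the 6 pairs of complexes I, III, IV and V gave r between 0.15 and 0.33 in R1, with I and IV highest, and between 0.12 and 0.24 in R2, with I and III highest; III and V were lowest in both.

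The origins also differed in what else they varied with. The nuclear sum gave r = 0.32 in R1 and 0.23 in R2 with the 113 cytosolic ribosomal protein genes, and -0.0049 and -0.035 with Malat1. The mt sum gave -0.15 and -0.12 with the ribosomal proteins and 0.54 and 0.48 with Malat1. Within the deepest bin, r between mt sum and Malat1 was 0.17 in R1 and 0.19 in R2, and within the shallowest 0.58 and 0.52. By Spearman's rho the gap between these bins remained in R1 (0.17 and 0.57), but in R2 their values were nearly equal (0.19 and 0.21). The bins between them were higher in R2, with 0.44 at 5000 to under 8000 UMIs and 0.27 at 8000 to under 12000. Of the 723 genes with a mean of at least 0.5 UMI in both mice, those most opposite to mt-Cytb, chosen after their values were seen, were Rgr (-0.50 and -0.44), an opsin of the visual cycle, and Bsg (-0.37 and -0.29). Shares of a fixed total are not independent, so part of any r is fixed by the total.

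The spread between cells was wider for the mt sum than for the nuclear sum. In thinned cells of R1 the mt sum had a 5th percentile of 15, a median of 39 and a 95th percentile of 95.2 UMIs, and the nuclear sum had 109, 142 and 180. In R2 these were 20, 38 and 82.3 for the mt sum and 111, 140 and 172 for the nuclear sum. The coefficient of variation was 55.4% and 48.5% for the mt sum and 15.7% and 13.6% for the nuclear sum. Within the deepest bin it was 32.5% and 33.9% for the mt sum and 13.2% and 12.8% for the nuclear sum. The mt sum is the smaller, so counting error weighs more on it. Among single members, the Fano factor (variance over mean) was 7.31 in R1 and 4.08 in R2 for Cox8b, 6.15 and 4.91 for mt-Cytb, 5.31 and 3.78 for mt-Nd4 and 4.04 and 3.88 for mt-Nd1. Cox8b had the highest value of the members in R1 and mt-Cytb in R2. mt-Nd5 (1.55 and 1.61) and mt-Co1 (1.73 and 1.53) lay near the nuclear member Ndufa4 (1.64 and 1.74). The median over all 770 genes of R1 with a mean of at least 0.5 UMI was 1.35, and that of the 69 members among them 1.38, whereas in R2 the medians were 1.47 over 763 genes and 1.44 over 69 members. Cox8b had rank 5 of these 770 in R1 and rank 7 in R2, so it and the abundant mt genes stood apart from the other members.

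A group of cells in R1 had almost no mt UMIs. In R1, 132 cells (4.85%) held under 20 mt UMIs per 10000, against 5 cells (0.170%) in R2. The limit of 20 was chosen after the values were seen. The 132 cells had a median of 3522.5 UMIs and 1042 genes. Their Malat1 level was 14.6, against 112 in the cells with 40 to under 80 mt UMIs per 10000 and 345 in those with at least 400. Their nuclear members stood at 509 and Ttr at 12.5% of UMIs. All kept cells of R1, these included, had 472 and 11.3%. The kept cells of R1 under 5000 UMIs, closer in depth and with most of the 132 cells included, had 497 and 11.6%. As a fraction of UMIs, the nuclear share of that bin was 0.0497 with the 132 cells and 0.0492 without them. Few mt UMIs, by which the cells were chosen, by themselves raise every other share. Rpe65 gave 58.6 and Rgr 263, so RPE transcripts were present. In these cells, low mt and low Malat1 levels thus stood beside nuclear members that were not lower. Without them, 488 of the 596 shallow cells of R1 remained, the shallowest-bin ratio of R1 was 1.90 in place of 2.28, and 4 members, Cox8b, mt-Nd4, mt-Cytb and mt-Nd1, were called.

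**Figure D4:**
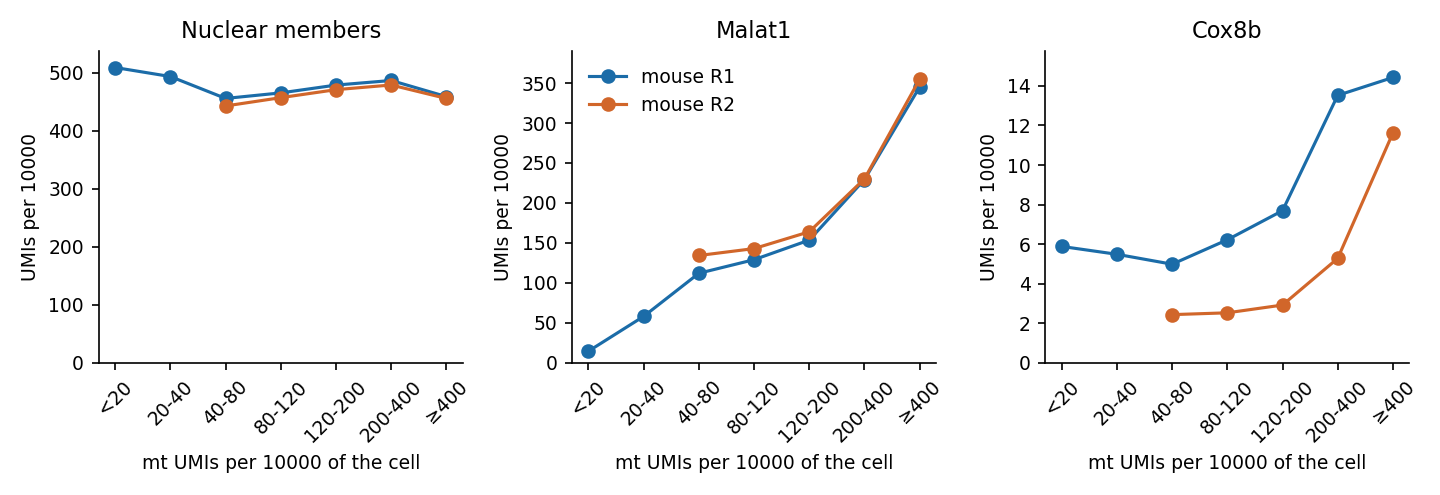
Nuclear members, Malat1 and Cox8b (y axes, UMIs per 10000, from 0) in cells grouped by their mt UMIs per 10000 (x axis), R1 in blue and R2 in orange; groups under 20 cells are not drawn. Nuclear members stay between 443 and 509, while Malat1 is lowest at the left and highest at the right of R1 and Cox8b is highest at the right in both mice.

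Tissue-limited isoforms were few apart from Cox8b and Cox6b2. Cox8b made up 21.0% of the Cox8a, Cox8b and Cox8c UMIs in R1 (exact Clopper-Pearson 95% interval, for counting error only, 20.7 to 21.3%) and 9.59% in R2 (9.403 to 9.79%). Over the depth bins its share was 31.99, 26.6, 21.4 and 15.7% in R1 and 11.1, 12.2, 10.3 and 8.55% in R2. R1 lay above R2 in every bin. The testis-specific Cox8c had no UMI in either mouse, which allows up to 0.00117 and 0.00102 UMIs per 10000.

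Cox8b UMIs were spread over many cells. After thinning to the same depth, 59.2% of the kept cells of R1 and 41.9% of R2 held a Cox8b UMI. In the cells under 5% Ttr, 65.7% of 35 and 66.7% of 15 cells did, so the share in kept cells was not above theirs. Without thinning, Cox8b stood at 9.77 in R1 and 6.26 in R2 in the cells under 5% Ttr, against 7.43 and 2.93 in kept cells. Ttr made up 0.739% and 0.399% of the UMIs of the cells under 5% Ttr. These cells may include RPE cells, since the paper proposes that its cluster C1, low in Ttr, is RPE. They are thus no control for free RNA in the droplets, whose part in the Cox8b UMIs was not tested. Across kept cells the Cox8b level differed by the mt share. It was 13.5 in R1 and 5.28 in R2 at 200 to under 400 mt UMIs per 10000. At 80 to under 120 it was 6.22 and 2.53. Across thinned cells, r between Cox8b and the mt sum was 0.20 in R1 and 0.16 in R2, but within the deepest bin it was -0.0045 and 0.060. Spearman's rho over all thinned cells was 0.17 in R1 but 0.071 in R2, so the relation in R2 depended on the coefficient. Of 723 genes, the one most like Cox8b, named after its values were seen, was Dct (r = 0.39 in R1 and 0.24 in R2), an enzyme of melanin synthesis, and the most opposite was Rgr (-0.28 and -0.19).

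The other tissue-limited isoforms of complex IV made up smaller shares than Cox8b in R1, and Cox6b2 exceeded it in R2. Cox6b2, known from testis, made up 10.7% of the Cox6b1 and Cox6b2 UMIs in R1 and 12.8% in R2, and lay between 9.90 and 13.1% in every bin. Cox7a1, the heart and muscle isoform beside Cox7a2, made up 2.30% and 2.13%, with 0.207 and 0.187 UMIs per 10000 and a UMI in 14.0% and 13.5% of kept cells. Its share was 2.75% in the shallowest and 1.88% in the deepest bin of R1, and 2.26% and 2.13% in R2. Cox4i2, the lung and hypoxia isoform beside Cox4i1, made up 0.899% and 0.585%. Its share went the opposite way to that of Cox8b in R1, from 0.544% in the shallowest to 1.11% in the deepest bin, and was 0.622% and 0.563% in R2. Cox6a2, the heart and muscle isoform beside Cox6a1, had 1 UMI in each mouse, Cox7b2 had 5 and 2, and Ndufa4l2, known to be induced in hypoxia, had 1 and 4. Of the muscle isoforms beside Cox8b, Cox6a2 was thus near 0, whereas Cox7a1 was low but present. Of the 3 genes for the c-ring subunit of the ATP synthase, Atp5g1 gave 61.7% in R1 and 48.1% in R2 and Atp5g3 38.3% and 51.9%. The order of these 2 genes in the summed cells was therefore reversed between the mice. In R2, however, Atp5g1 led in the shallower bins (51.4 and 51.9%), as in every bin of R1, and Atp5g3 in the deeper ones (52.4 and 53.0%). Atp5g2, whose end is shared with pseudogenes, had 8 and 14 UMIs.

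**Figure D5:**
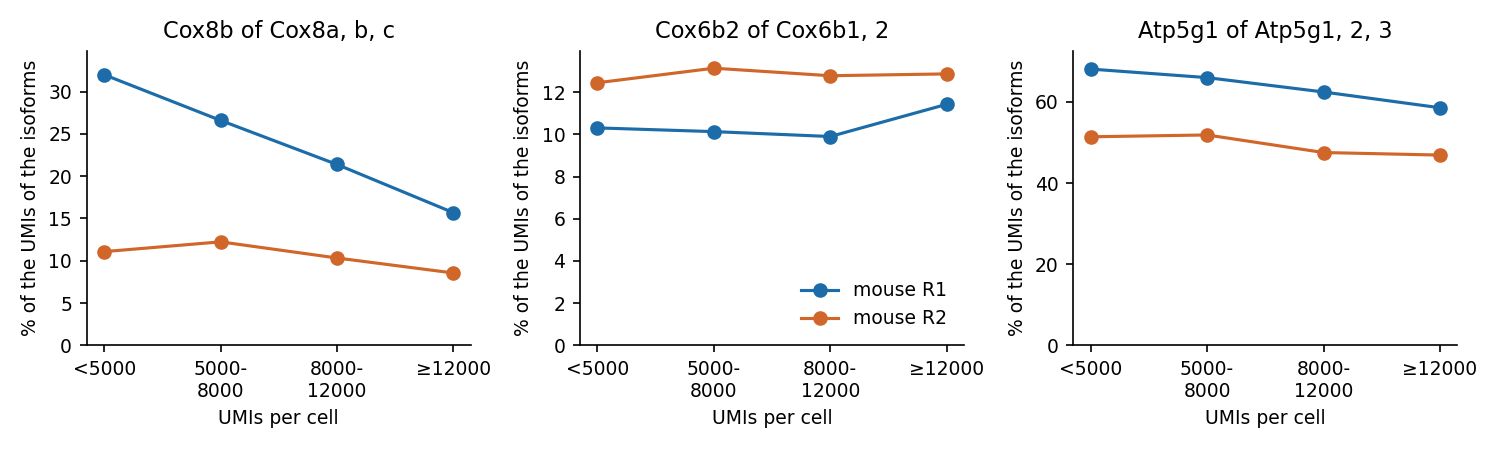
Share of the UMIs of an isoform group (y axes, percent, from 0) that fell to Cox8b, Cox6b2 and Atp5g1 in the 4 depth bins (x axis, UMIs per cell), R1 in blue and R2 in orange. The Cox8b share of R1 is 31.99% in the shallowest and 15.7% in the deepest bin, whereas the Cox6b2 shares stay between 9.90 and 13.1%.

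The start regions of Cox8a and Cox8b differ in the motifs searched for. Promoters of 300 bases, 250 before and 50 after a start, came from RefSeq on GRCm38.p6, and 76 of the 92 nuclear members were matched to them. The NRF1 motif (GCGCA, any base, GCGC) was found on either strand in 19 of the 76 (25.0%), against 7.17% of 17491 protein-coding genes in the table. The ETS motif bound by GABP (CCGGAAG) was found in 17 (22.4%, against 12.9%), YY1 (AAGATGGCG) in 8 (10.5%, against 2.14%) and ERR (TCAAGGTCA) in 2 (2.63%, against 0.377%). In all, 38 of the 76 held at least 1 of the 4, but the share over all coding genes was not counted. Ndufa4, Ndufa13 and Ndufb11, among the nuclear members with the most UMIs, held none. A lack of these motifs was thus not limited to tissue-limited isoforms. These are letter matches, described without a test, and a match is not a binding site. The promoters of the widespread and the tissue-limited subunit 8 are printed to show this, 5′ to 3′ on the minus strand, with ETS matches in capitals; Cox8a held 2 and Cox8b none of the 4 motifs.
Cox8a (chr19:7217567-7217866): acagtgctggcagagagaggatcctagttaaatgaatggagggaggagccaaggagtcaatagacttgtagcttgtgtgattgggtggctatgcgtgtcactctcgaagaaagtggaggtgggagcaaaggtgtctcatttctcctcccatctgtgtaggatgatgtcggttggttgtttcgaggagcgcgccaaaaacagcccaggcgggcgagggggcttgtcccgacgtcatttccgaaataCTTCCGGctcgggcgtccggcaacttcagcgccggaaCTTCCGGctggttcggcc
Cox8b (chr7:140900397-140900696): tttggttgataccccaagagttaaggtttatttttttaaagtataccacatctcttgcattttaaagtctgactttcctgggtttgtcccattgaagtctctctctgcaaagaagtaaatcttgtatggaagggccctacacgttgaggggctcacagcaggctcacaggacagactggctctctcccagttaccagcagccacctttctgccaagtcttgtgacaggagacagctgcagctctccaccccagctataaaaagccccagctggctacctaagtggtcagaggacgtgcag

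The cells under 5% Ttr that met the gene and mt limits, 59 in R1 and 19 in R2, differed from the kept cells in the sums. Their nuclear members stood at 782 in R1 and 660 in R2, their mt members at 262 and 280, and their ratio at 2.98 and 2.36, against 3.60 and 3.62 in all kept cells. Low Ttr, by which these cells were chosen, itself raises all other shares. With Ttr left out of the total, their nuclear sums were 788 and 663, against 532 and 529 in the kept cells. The mt sums were then 264 and 281, against 148 and 146. The kept cells under 5000 UMIs, which are closer to them in depth, had ratios of 2.28 and 3.06, so at like depth the cells under 5% Ttr lay above the kept cells in R1 and below them in R2. Complex I made up 32.4% and 33.2% of their nuclear sum, against 39.3% in the kept cells of R1, and complex II 2.63% and 2.91%. These cells had medians of 3200 and 3836 UMIs, and as 1 pool per mouse they allowed no test.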

How the data were processed

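Single-cell 3′ RNA-seq (10x Genomics) of RPE cells from 2 mice was analysed. The labels name chemistry v3 and the study's methods v2, and barcodes in the files had 14 bases. The deposited matrices hold raw UMI counts per gene and cell barcode, made by the authors with Cell Ranger 1.2.0 (and bcl2fastq 2.20.0.422) on GRCm38. The authors' ambient RNA removal, doublet removal and clustering are not in these counts, and the cell number their methods give for R2 is lower than its barcodes. Kept cells had at least 500 genes, at most 5% mt- UMIs and at least 5% Ttr UMIs. No doublets were removed in the main analysis.

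UMI counts were summed per mouse and depth bin, and the 4 sums of the shallowest and deepest bins were tested with edgeR 4.0.16 (filterByExpr, TMM, quasi-likelihood test, mouse as a block, Benjamini-Hochberg adjusted p under 0.05). The block stands because both sums of a mouse come from the same animal. DESeq2 1.42.0 was an alternative. Correlations used cells thinned to 3000 UMIs (NumPy 2.4.6, seed 1) and carry no p. Kept cells with fewer UMIs, 186 in R1 and 192 in R2, were left out there. The members and gene lists were chosen with earlier results of these data known. The genes named were all mt members, the 5 nuclear members with the most UMIs, Sdha to Sdhd, the isoform genes, called members and the 3 with the largest Fano factors. Any others were chosen after their values were seen.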

Additional observations from a re-analysis of the deposited data

How the results depend on the processing

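The log2 difference between the deepest and the shallowest bin kept its sign and moved by less than the SD between the mice under 13 alternatives for each of 3 values: the mean over the mice was -0.08 for the nuclear share (-0.09 to -0.07), -0.80 for the mt share (-0.93 to -0.74) and 0.72 for the ratio (0.66 to 0.86). In R2 alone, medians over cells gave -0.31 for the mt share and 0.27 for the ratio, both over 1.5 times smaller than its summed values, while those of R1 were larger (-1.30 and 1.14). With each mouse on its own the summed values were -0.11 and -0.04, -1.11 and -0.49, and 0.99 and 0.45. Of 15 alternatives for the 7 called members, 12 gave counts within 1.5 times. Without the replicate block (the mice unpaired) 0 members were called. There 467 of all 10902 genes tested had an unadjusted edgeR p under 0.05, no more than this threshold gives with no difference. DESeq2 called 3 members, and leaving out the cells poor in mt UMIs called 4. Like the setting without fibroblast-marked cells, that last alternative was chosen after seeing the data. The cause of these lower counts was not tested. Without TMM, 5 were called, mt-Co1 and mt-Nd5 lying at an adjusted p of 0.052. With 1 mouse left there is no test: the log2 value of Cox8b was -1.48 or -0.44. The mean correlation of nuclear and mt shares, 0.061, was 0.093 with Spearman's rho, 0.10 with Ttr at least 10% of UMIs, 0.10 without Ttr and 0.031 without the mt limit, and 0.054 or 0.069 in 1 mouse. Depth limits the genes with few UMIs, such as mt-Nd3 (7 and 3), Cox7b2 (5 and 2) and Atp5g2 (8 and 14).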
